A study of Mus musculus with 4 samples.

Results

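The CCN family genes Ccn1 to Ccn5 and the genes of tenascin-C (Tnc), periostin (Postn), thrombospondin-1 and thrombospondin-2 (Thbs1, Thbs2) and SPARC (Sparc) were followed in quiescent mouse myoblasts with and without Wnt3A. The genes were listed with earlier results of these data known. Their probe sets were those that the platform annotation assigns to one of them alone. The older CCN symbols Cyr61, Ctgf, Nov, Wisp1 and Wisp2 were included. All 10 were on the array, with 16 of its 22690 probe sets, out of 12393 named genes. All 10 had a mean signal above the limit for dim genes and were among the 9295 genes tested. Another probe set names Thbs1 together with a different gene and was not used.

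The cells were C2C12, an established mouse myoblast line, grown with 20% fetal calf serum and then kept for 48 hours in semi-solid methyl cellulose, a suspension culture in which these cells leave the cell cycle and enter the reversible resting state G0. The control group is so labelled, although the protocol text, the same for all samples, mentions Wnt3A, and the Wnt3A group received purified Wnt3A at 50 ng/ml. Both groups were held in suspension, so neither shows attached or dividing cells. Each group had 2 Affymetrix arrays of total RNA, which the labels call biological replicates; whether the cultures were started apart is not given, and the p-values measure the spread between these arrays.

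Matricellular proteins are secreted into the extracellular matrix, where they act less as building blocks than as signals, through integrins, proteoglycans and growth factors that they bind. CCN proteins are cysteine-rich and modular, Ccn1 and Ccn2 being known targets of YAP and TEAD and of serum and mechanical stimulation, and Ccn4 being known as a gene induced by Wnt signalling. Tenascin-C and periostin are associated with developing and repairing tissue, including regenerating muscle.

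Signals were taken as log2 values, a difference is Wnt3A minus control, and errors are SE from the limma fit with n = 2 arrays per group. Median signals of the 4 arrays lay between 4.15 and 4.22, and correlations between arrays over the tested genes lay between 0.936 and 0.978, with Wnt3A replicate 2 at 0.957 or lower to each of the other arrays and the remaining pairs at 0.970 or higher. All 8 myoblast and early muscle markers were above the limit for dim genes, with a mean between 6.83 (Wnt3A replicate 2) and 7.67 (control replicate 2). Myod1, the myogenic determination factor, read 6.84 and 7.11 in control, against 6.32 and 3.62 with Wnt3A, and Myf5, the other determination factor of the list, gave 6.57 and 5.98 in control, against 7.77 and 7.65 with Wnt3A. Of the 8 markers 3 were higher and 5 lower with Wnt3A. Of 5 endothelial markers 2 passed the limit, with means between 2.12 and 2.46, and of 4 epithelial markers 1 did. Of 6 leukocyte markers 3 passed, with means between 4.24 and 4.92. Among these Cd14 read 7.54 and 7.40 in control, against 6.16 and 6.46 with Wnt3A, while Cd68 and Csf1r were higher with Wnt3A.

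Promoter windows from RefSeq (GRCm38.p6) were matched for 5 of the 10 genes, namely Ccn1, Tnc, Postn, Thbs2 and Sparc; windows for Ccn2, Ccn3, Ccn4, Ccn5 and Thbs1 were not matched. The 250 bases before the start of Ccn1 and Tnc are shown because both Wnt3A arrays lay above both controls for these genes, and those of Postn because its arrays were widest apart. They are written 5′ to 3′ on the strand of the gene, with matches to any of 4 motifs in capitals: CTTTGA (TCF/LEF), GGAATG (TEAD), TGANTCA (AP-1) and TATANA (TATA), each searched on both strands. Ccn1 lies at chr3:145649986-145650235 (minus strand), the Tnc window at chr4:64046937-64047186 (minus strand) and the Postn window at chr3:54360857-54361106 (plus strand).
Ccn1: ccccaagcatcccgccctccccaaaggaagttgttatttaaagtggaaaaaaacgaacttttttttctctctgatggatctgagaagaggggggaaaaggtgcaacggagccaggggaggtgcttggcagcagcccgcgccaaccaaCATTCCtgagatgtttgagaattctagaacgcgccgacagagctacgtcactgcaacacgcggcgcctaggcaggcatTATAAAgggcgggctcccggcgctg
Tnc: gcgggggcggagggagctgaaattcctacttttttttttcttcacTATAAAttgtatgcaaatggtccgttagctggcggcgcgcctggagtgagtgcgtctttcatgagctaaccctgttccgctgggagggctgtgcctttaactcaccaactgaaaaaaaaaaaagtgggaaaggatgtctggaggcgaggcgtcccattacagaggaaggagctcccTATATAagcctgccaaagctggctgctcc
Postn: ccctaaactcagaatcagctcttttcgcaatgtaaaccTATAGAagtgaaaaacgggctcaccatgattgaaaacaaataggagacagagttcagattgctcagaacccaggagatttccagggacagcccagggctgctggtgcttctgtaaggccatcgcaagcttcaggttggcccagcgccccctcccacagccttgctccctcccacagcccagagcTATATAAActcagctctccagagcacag
In Ccn1 the capitals CATTCC are the TEAD motif read on the other strand, 103 to 98 bases before the start, and TATAAA lies 25 to 20 bases before it. Over all 32851 promoter windows of this length the TEAD motif was found in 12.6%. The TATA motif was found in 22.6% of windows; in Tnc it lies 29 to 24 bases before the start, overlapping its own reverse complement, and again at 205 to 200, and in Postn it forms an overlapping run from 28 to 21 bases before the start, with another match at 212 to 207. The TCF/LEF motif, found in 13.8% of all windows, and the AP-1 motif, found in 6.75%, were in none of these 3 windows, which says only that these letters are not there. Tnc and Postn each have a further annotated start with its own window, not shown.

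Resting cells given Wnt3A were set against resting control cells, under a series title that asks for β-catenin networks of quiescent myogenic cells. In 4 of the 10 genes, Ccn1, Ccn3, Ccn4 and Tnc, both Wnt3A arrays lay above both control arrays, and in 1, Ccn5, both lay below. Among all tested genes 14.7% lay above in this way and 19.8% below, so that 5 of the 10 genes stand beside a background of 34.4% whose groups were apart. Ccn3 stood 7.98-fold and Tnc 3.24-fold higher with Wnt3A on the means of the log2 values, while Ccn1 and Ccn4 stood 1.68-fold and 1.70-fold higher. For Ccn2, Postn, Thbs1, Thbs2 and Sparc the groups overlapped. In RNA from whole cultures fewer cells of a type and less RNA per cell cannot be told apart. At a threshold of 0.05 on the adjusted p in limma there were 0 of the 10 genes and 0 of the 9295 tested (0%). At an unadjusted p under 0.05 there were 4 of the 10, against 5.68% of all tested genes. The list was written with earlier results of these data known, so these shares are no test of the 10 genes as a set. An exact permutation test of 2 arrays against 2 cannot go below p = 0.333, two-sided.

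**Figure D1:**
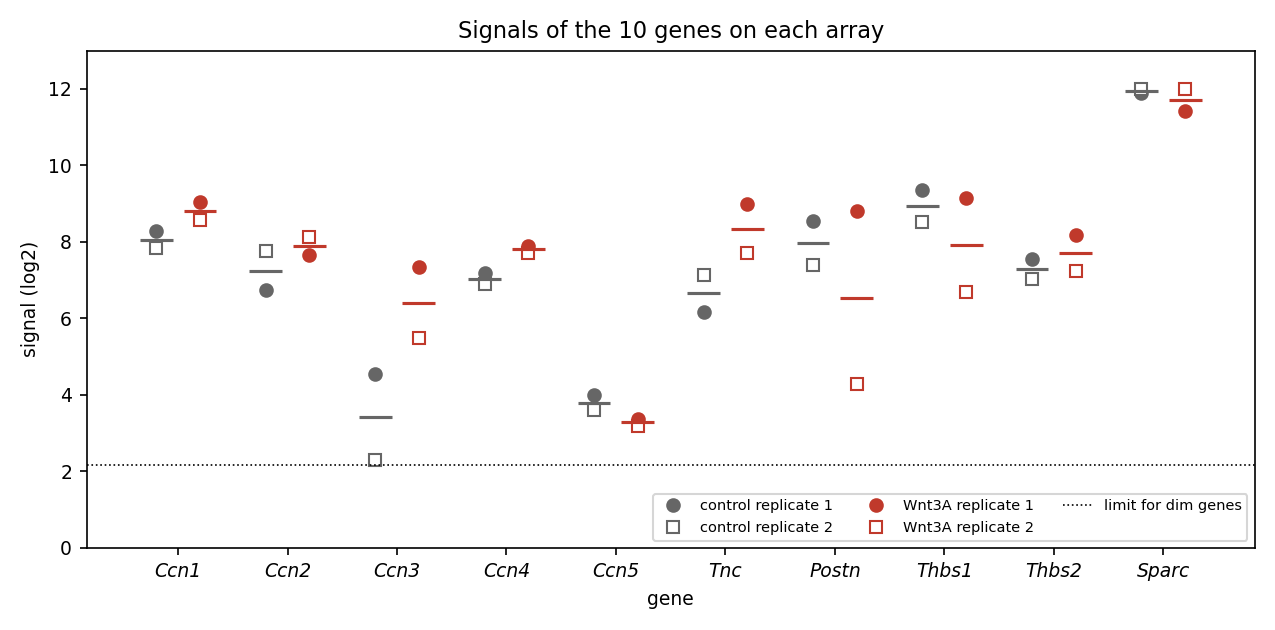
Signal (log2, vertical axis) of each of the 10 genes (horizontal axis) on each array; grey symbols are control and red symbols Wnt3A, circles are replicate 1, squares replicate 2, bars are group means and the dotted line is the limit for dim genes at 2.18. The red symbols lie above the grey ones for Ccn1, Ccn3, Ccn4 and Tnc and below them for Ccn5, and the 2 red symbols of Postn lie 4.54 apart.

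Ccn1, a heparin-binding CCN protein that supports cell adhesion through integrins, read 8.28 and 7.84 in control, against 9.03 and 8.58 with Wnt3A. Both Wnt3A arrays were higher than both controls, the nearest pair being 0.30 apart. The difference was 0.74 (SE 0.27, 95% interval 0.040 to 1.45, adjusted p = 0.867 in limma). Its other probe set read 6.69 and 6.70 in control, against 7.69 and 7.21 with Wnt3A, a difference of 0.75 with the same order of the arrays between groups. The probe set used for the gene is of a type (_x_at) that can share probes with other transcripts, as is that of Ccn3; the other probe sets of both genes are not.

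Ccn2, connective tissue growth factor, a promoter of fibroblast matrix production, read 6.74 and 7.76 in control, against 7.66 and 8.13 with Wnt3A. Control replicate 2 lay 0.096 above Wnt3A replicate 1, so the groups overlapped. The difference was 0.65 (SE 0.41, 95% interval -0.43 to 1.72, adjusted p = 0.917 in limma), and it came to 0.14 when control replicate 1 was left out and to 1.16 when control replicate 2 was. A gap between the control arrays smaller than that of Ccn2, 1.02, was found in 95.9% of tested genes.

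Ccn3, earlier Nov, a CCN protein reported to restrain proliferation in several cell types, read 4.55 and 2.29 in control, against 7.34 and 5.49 with Wnt3A. The groups did not overlap, with Wnt3A replicate 2 lying 0.94 above control replicate 1, but the arrays within each group were far apart. The difference was 2.997 (SE 0.97, 95% interval 0.44 to 5.55, adjusted p = 0.809 in limma), and only 0.0538% of tested genes had a larger one. A smaller gap between the control arrays than the 2.26 of Ccn3 was found in 99.7% of tested genes, and a smaller gap between the Wnt3A arrays than its 1.84 in 97.8%. The other probe set read 3.81 and 1.27 in control, against 6.72 and 5.18 with Wnt3A, a difference of 3.41. Both probe sets were designed on the same sequence record, and both put control replicate 2 close to or under the limit for dim genes of 2.18, so that the size of the difference rests in part on signals near background. Leaving out control replicate 2 gave a difference of 1.87, and leaving out control replicate 1 gave 4.13. Without Wnt3A replicate 1 it was 2.07 and without Wnt3A replicate 2 it was 3.92.

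Ccn4, earlier Wisp1, read 7.18 and 6.91 in control, against 7.90 and 7.72 with Wnt3A. All 4 arrays of this gene lay close to their group mean, and the nearest arrays of different groups were 0.54 apart. The difference was 0.77 (SE 0.21, 95% interval 0.21 to 1.32), and its unadjusted p of 0.0168 was the lowest of the 10 genes, with an adjusted p of 0.702 in limma. The gap between its control arrays, 0.27, exceeded that of 55.4% of tested genes, and the gap between its Wnt3A arrays, 0.18, exceeded that of 33.6%. Its other probe set, from the same sequence record, read 6.84 and 6.71 in control, against 7.59 and 7.28 with Wnt3A, a difference of 0.66. Each array left out in turn kept the difference of Ccn4 between 0.63 and 0.90.

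Ccn5, earlier Wisp2, which lacks the C-terminal domain of the other CCN proteins, went the other way. It read 3.99 and 3.60 in control, against 3.37 and 3.19 with Wnt3A, so that both Wnt3A arrays lay below both controls, the nearest pair by 0.23. The difference was -0.51 (SE 0.22, 95% interval -1.10 to 0.073, adjusted p = 0.917 in limma), or 1.43-fold lower, and it was measured by 1 probe set. Leaving out control replicate 1 gave -0.32, and leaving out control replicate 2 gave -0.71. Scaled to the hybridization controls of the arrays, the difference was -0.19 and the groups overlapped.

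**Figure D2:**
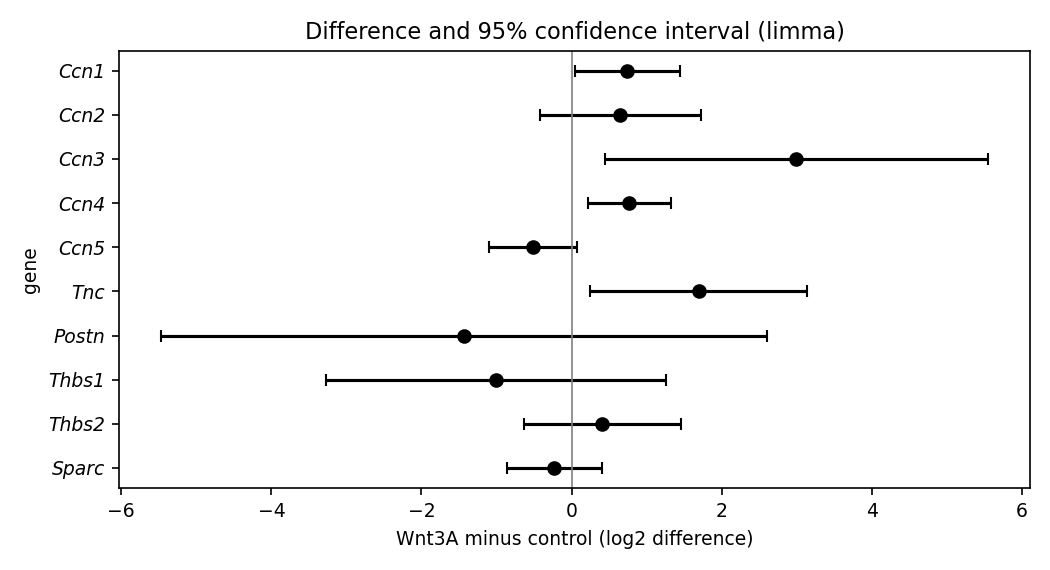
Difference of Wnt3A minus control (log2, horizontal axis) for each of the 10 genes, with bars for the 95% confidence interval of the moderated limma fit on 2 arrays per group. The intervals of Ccn1, Ccn3, Ccn4 and Tnc lie above 0 before adjustment for the genes tested, and the widest interval, that of Postn, runs from -5.47 to 2.61.

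Among the matrix proteins outside the CCN family, Tnc stood highest against its control. This gene of tenascin-C, a hexameric glycoprotein that modulates adhesion, read 6.17 and 7.13 in control, against 8.98 and 7.71 with Wnt3A. Both Wnt3A arrays lay above both controls, the nearest pair 0.58 apart, although the control arrays were 0.96 and the Wnt3A arrays 1.27 from each other. The difference was 1.69 (SE 0.55, 95% interval 0.25 to 3.14, adjusted p = 0.809 in limma), and 0.581% of tested genes had a larger one. It was 1.06 without Wnt3A replicate 1 and 2.33 without Wnt3A replicate 2. Tnc was measured by 1 probe set.

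Postn, the gene of periostin, which binds integrins and takes part in collagen crosslinking, read 8.55 and 7.40 in control, against 8.81 and 4.28 with Wnt3A. The Wnt3A arrays were the highest and the lowest of the 4, and 99.97% of tested genes had a smaller gap between the Wnt3A arrays than the 4.54 of Postn. The difference was -1.43 (SE 1.54, 95% interval -5.47 to 2.61, adjusted p = 0.940 in limma), and it was 0.84 without Wnt3A replicate 2 and -3.70 without Wnt3A replicate 1. Its direction is therefore set by 1 array.

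Thbs1, the gene of a thrombospondin that activates latent TGF-β and binds CD47 and CD36, read 9.35 and 8.52 in control, against 9.16 and 6.70 with Wnt3A. Wnt3A replicate 1 lay within the range of the controls and Wnt3A replicate 2 below it. The difference was -1.01 (SE 0.86, 95% interval -3.27 to 1.26, adjusted p = 0.934 in limma), and it was 0.22 without Wnt3A replicate 2 and -2.23 without Wnt3A replicate 1. The other probe set showed the same order, with 7.09 and 5.50 in control, against 7.07 and 3.97 with Wnt3A, a difference of -0.77. Wnt3A replicate 2 was also the array with the lowest mean of the myoblast markers, given above. Of these markers Myod1, Des, Cdh15 and Myog were lowest on that array, Chrna1 and Ncam1 were highest on it, and Myf5 and Itga7 lay between. Whether this has a part in the low Postn and Thbs1 of that array was not tested.

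Thbs2, a thrombospondin known as an inhibitor of angiogenesis, read 7.55 and 7.04 in control, against 8.19 and 7.23 with Wnt3A, and the groups overlapped. The difference was 0.41 (SE 0.40, 95% interval -0.63 to 1.45, adjusted p = 0.935 in limma) and -0.066 without Wnt3A replicate 1. On its other probe set, which read 6.89 and 7.12 in control, against 7.67 and 7.13 with Wnt3A, the difference was 0.39. There the 2 groups were separated by the narrow margin between control replicate 2 at 7.12 and Wnt3A replicate 2 at 7.13.

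Sparc, the gene of a collagen-binding glycoprotein also called osteonectin, read 11.90 and 12.00 in control, against 11.43 and 12.01 with Wnt3A. The groups overlapped, with Wnt3A replicate 2 level with control replicate 2 and Wnt3A replicate 1 lower. The difference was -0.23 (SE 0.24, 95% interval -0.87 to 0.41, adjusted p = 0.940 in limma), it was 0.058 without Wnt3A replicate 1, and it was 0.089 with arrays scaled to their hybridization controls. In the fit without that scaling the interval lay within a 2-fold difference in either direction, while with it the SE was larger, at 0.36. The other probe set read 10.68 and 10.92 in control, against 10.25 and 10.72 with Wnt3A, a difference of -0.32.

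**Figure D3:**
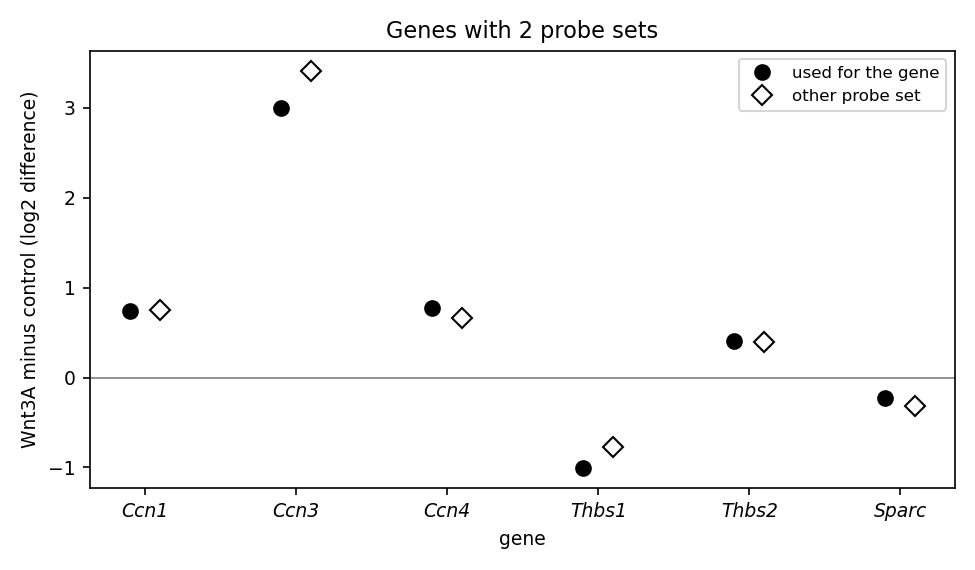
Difference of Wnt3A minus control (log2, vertical axis) for the 6 genes with 2 probe sets (horizontal axis); filled circles are the probe set used for the gene and open diamonds the other one. The probe sets of each gene lie on the same side of 0, and the widest distance is that of Ccn3, with 2.997 and 3.41.

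Of the 10 genes 6 had 2 probe sets, and in all 6 these had the same sign. Probe sets of a gene are hybridized with the same RNA on the same array, so their likeness speaks of the measurement and adds no replicate of the treatment.

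Across the 10 genes 6 were higher and 4 lower with Wnt3A, with a median difference of 0.53, which was 0.85 after scaling to the hybridization controls; over all tested genes there were 4366 higher and 4929 lower, around a median of -0.021. That scaling moved the median of all tested genes to 0.30, and relative to this Ccn3 stood at 3.02, Tnc at 1.71, Ccn4 at 0.79, Ccn1 at 0.77, Ccn5 at -0.49 and Sparc at -0.21. Under it 7 of the 10 were higher, Sparc being the one that turned, and the groups were apart in 6, all with Wnt3A above, where 40.1% of all tested genes lay above. Without Wnt3A replicate 2 there were 8 higher and 2 lower, as Postn and Thbs1 turned.

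**Figure D4:**
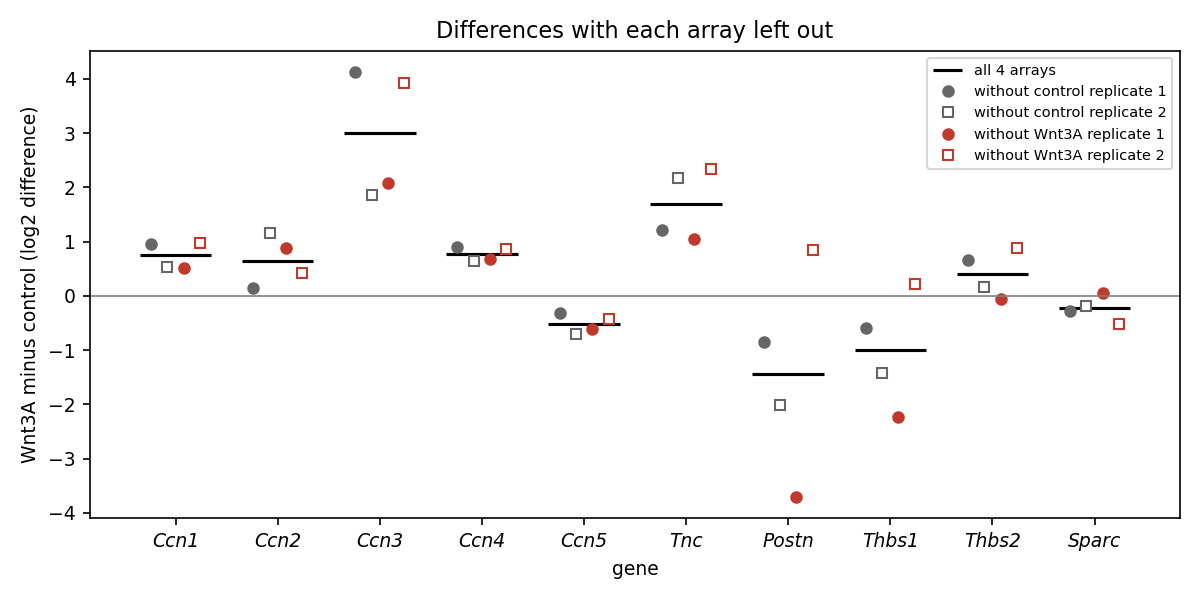
Difference of Wnt3A minus control (log2, vertical axis) for each gene with all 4 arrays (black bars) and with 1 array left out (symbols; grey for a control, red for a Wnt3A array). Ccn1, Ccn2, Ccn3, Ccn4 and Tnc stay above 0 and Ccn5 below 0 with any single array left out, while Postn, Thbs1, Thbs2 and Sparc have symbols on both sides of 0. Where the groups do not overlap, as in Ccn1, Ccn3, Ccn4, Ccn5 and Tnc, leaving out 1 array cannot change the side.

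Relatives of these genes, that is further thrombospondins, tenascins and SPARC-like proteins along with fibulins and other matrix glycoproteins, were mixed in direction. Of 29 listed 24 were on the array under a single gene name and 20 were tested, 9 of them higher and 11 lower with Wnt3A. The groups were apart in 9 of them, 2 with Wnt3A above and 7 with Wnt3A below. These are 20 genes beside a background of 14.7% above and 19.8% below. The median difference was -0.20, or -0.18 relative to that of all tested genes; with arrays scaled to their hybridization controls, which adds 0.32 to the difference of every gene, it was 0.11 and again -0.18 relative to all genes. None passed an adjusted p of 0.05 in limma, and 3 had an unadjusted p under 0.05, against 5.68% of all tested genes. Emilin1, an elastic fibre glycoprotein gene, read 6.90 and 7.17 in control, against 5.53 and 5.62 with Wnt3A, a difference of -1.46 (SE 0.22, adjusted p = 0.361 in limma). Fbln1, the gene of fibulin-1, a basement membrane and elastic fibre protein, read 7.71 and 6.40 in control, against 5.26 and 4.54 with Wnt3A, a difference of -2.16 (SE 0.53). Sparcl1, a close relative of Sparc, read 5.09 and 5.80 in control, against 2.93 and 4.13 with Wnt3A, a difference of -1.92 (SE 0.49). Efemp1, the gene of fibulin-3, read 7.35 and 6.47 in control, against 5.99 and 3.25 with Wnt3A, a difference of -2.29 (SE 0.96). In these 4 genes both Wnt3A arrays lay below both controls. Among the thrombospondins outside the 10, Thbs3 differed by -0.93 and Comp by -0.30, and Thbs4 was under the limit for dim genes. The difference between Sparcl1 and Sparc was not tested.

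Genes listed as receptors and partners of matricellular proteins were spread around 0. Of 30 listed, 29 were on the array under a single gene name and 26 were tested, with 10 higher and 16 lower, and with 3 above and 7 below without overlap, beside the same 14.7% and 19.8% of all genes. The median was -0.072, and 0.25 with arrays scaled to their hybridization controls, where the median of all genes was 0.30. None passed an adjusted p of 0.05 in limma, and 3 had an unadjusted p under 0.05, again against 5.68%. Lrp1, the endocytic receptor that clears thrombospondins and binds CCN2, read 9.06 and 8.98 in control, against 8.26 and 7.86 with Wnt3A, a difference of -0.96 (SE 0.22, adjusted p = 0.601 in limma). Sdc1, a heparan sulfate proteoglycan of the cell surface, read 10.48 and 10.56 in control, against 9.86 and 9.75 with Wnt3A, a difference of -0.72 (SE 0.17). The integrin β2 gene Itgb2 differed by -0.77, with both Wnt3A arrays below both controls and all 4 arrays between 2.44 and 3.71. Cd36, a receptor of thrombospondins, read 3.54 and 4.60 in control, against 3.25 and 2.41 with Wnt3A, a difference of -1.24 (SE 0.47). The αv integrin gene Itgav, whose product is shared by many receptors of CCN proteins and periostin, differed by 0.22 (95% interval -0.22 to 0.66). Both its Wnt3A arrays lay above both controls, with 9.65 and 9.77 in control, against 9.89 and 9.96 with Wnt3A.

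**Figure D5:**
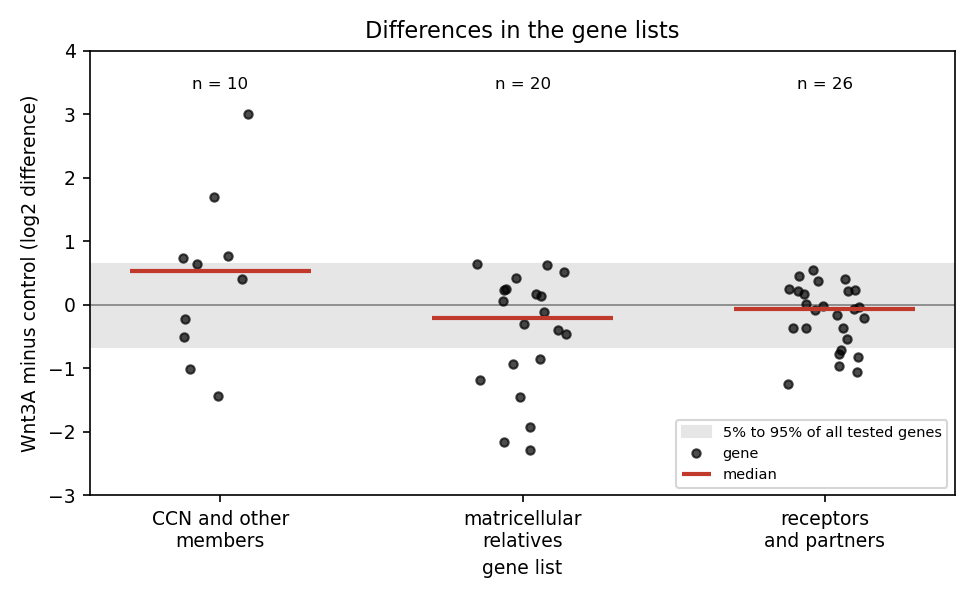
Difference of Wnt3A minus control (log2, vertical axis) for the tested genes of each list; points are genes, red bars medians, and the grey band holds the middle 90% of all tested genes, from -0.67 to 0.64. The medians are 0.53 for the 10 CCN and other matricellular genes, -0.20 for their relatives and -0.072 for receptors and partners.

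Fibroblasts also make these proteins, and of 8 fibroblast markers 6 were tested. On both Wnt3A arrays 5 of the 6 lay below both controls, against 19.8% of all tested genes. Their differences were -1.65 for Fap, -1.22 for Pdgfra, -1.18 for Dcn, -0.78 for Pi16 and -0.42 for Col1a2. The groups of Col1a1, a collagen I gene, overlapped, with 4.59 and 6.39 in control, against 5.64 and 6.41 with Wnt3A. None of the 6 passed an adjusted p of 0.05 in limma, and 3 had an unadjusted p under 0.05, against 5.68% of all tested genes. The mean of the 6 was 6.66 and 7.15 in control, against 6.16 and 6.08 with Wnt3A. The other markers of the list, Lum and Thy1, were under the limit for dim genes. The 3 tested adipocyte markers of 6 lay below both controls, with means of 5.15 and 4.51 in control, against 3.69 and 2.99 with Wnt3A. None of these 3 passed an adjusted p of 0.05 in limma, and 2 had an unadjusted p under 0.05, beside the same 19.8% and 5.68% of all tested genes. The part of the fibroblast and adipocyte markers in the values of the 10 genes was not tested.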

How the data were processed

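Expression was measured on 4 Affymetrix arrays, 2 per group, grouped by sample titles. For each probe set the authors deposited 1 value on every array, taken here as log2 signals because the values run from 0.50 to 13.23; the base is not stated, and another base would rescale every difference. The submitters' processing notes name GCOS and PLIER. Not given in the sources used here are the normalization, centring, filters and build. Column medians (4.19 and 4.20 for control, 4.22 and 4.15 for Wnt3A, replicates 1 and 2) lay close together and nothing was normalized again. The number of arrays limits the precision.

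Of 22690 probe sets, 64 are array controls, 1555 others are unlisted in the platform annotation, 691 of the 21084 listed name several genes and were not used, and 20380 with 1 symbol were; 20351 were matched to RefSeq symbols (GRCm38.p6) by Entrez ID. Where a gene had several probe sets, the one of highest mean over the arrays stood for it. The dimmest 25% of the 12393 genes (mean signal under 2.18) were left out. The 9295 others were tested with limma 3.58.1 in R 4.3.3 (lmFit, eBayes with intensity trend, two-sided, group as only term, 4.68 degrees of freedom), with Benjamini-Hochberg adjustment over all of them at 0.05. SE and 95% intervals are from this fit. The procedure was also run on simulated data with independent noise on each array. Those data lack the correlation between arrays of the same replicate number that is given below.

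The genes, lists and tests were chosen with earlier results of these data known. Named by rule were the 10 genes with all their probe sets and the 4 genes of lowest p per list of relatives and of receptors; Thbs3, Comp, Thbs4, Itgav and the markers were named after their values were seen. Motifs were also chosen then. Alternatives were the replicate block, 3 other scalings, 2 other filters, 2 other treatments of probe sets, no trend, and each array left out.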

Additional observations from a re-analysis of the deposited data

How the results depend on the processing

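With 2 arrays per group and no detection calls, spreads are uncertain and low signals such as those of Ccn3 in control replicate 2 can be judged only by their level. The genes past the threshold in limma numbered 0 with the group as only term, 83 with the replicate number as a block, 49 after scaling to the hybridization controls and 1 with the dimmer 50% left out; each array left out gave 0, as did the remaining alternatives. Of the 10 genes 0 passed, and 1 did with the replicate block: Ccn3, with an adjusted p of 0.00713 in limma (SE 0.24), where the adjusted p otherwise ran from 0.0796, after scaling to the hybridization controls, to 0.9996, without control replicate 2. Deviations from the group means correlated at r = 0.478 between arrays of the same number; with 2 pairs and labels that do not say what the number marks, the pairing is not established. The median difference of the 10 genes was 0.53 and ran from 0.29 to 0.85 with each array left out. Postn ran from -3.70 to 0.84 with each array left out, Thbs1 from -2.23 to 0.22, Thbs2 from -0.066 to 0.89 and Sparc from -0.52 to 0.058; Sparc was also above 0, at 0.089, after scaling to the hybridization controls. The cause of these turns on leaving out an array was not tested. That scaling adds 0.32 to the difference of every gene, by its construction, which took Sparc above 0 and the median of the relatives from -0.20 to 0.11. Ccn1, Ccn2, Ccn3, Ccn4, Ccn5 and Tnc kept their direction under every alternative in which they were tested. Ccn5 was not tested with the dimmer 50% left out. The replicate block, the other filters and the fit without trend leave the difference itself unchanged, so they could not turn it. Leaving out 1 array could not turn a gene whose groups did not overlap, which holds for these genes except Ccn2.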
